A study of Mus musculus with 80 samples.

Results

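Of 246046 autosomal bins of 10 kb, 1314 (0.534%, 13.1 Mb) lost H3K27me3 peak coverage in each of the 5 Pgr-Cre knockouts of Kdm6b compared here. The bins run from position 0 of each chromosome of the mouse build mm10. They were chosen by the measured coverage itself: the percent of the bin inside peaks was at least 20 points lower in the knockout than in its control in each of 5 pairs of peak lists. By comparison, 4524 bins (1.84%) were at least 20 points higher in all 5 pairs. The values of those 5 pairs chose the bins, so they are given below as a description and support nothing. A 6th pair, made with another Cre, and 4 lists from wild-type females took no part in the choice.

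Trimethylation of lysine 27 of histone H3 is set by Polycomb repressive complex 2 and marks repressed genes and long silent stretches of chromatin. It is densest at CpG-rich promoters of developmental regulators and spreads at lower density through gene-poor chromatin. Kdm6b encodes a demethylase that removes this mark. In the uterus, fibroblasts of the endometrium and myometrium respond to progesterone through its receptor, which the gene Pgr encodes.

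The mark was profiled with CUT&RUN (antibody-guided nuclease cleavage of chromatin) in fibroblasts isolated with magnetic beads from digested uterine tissue. Conditional knockouts (cKO) were Kdm6b f/f females carrying Pgr-Cre, driven by the progesterone receptor gene and thus active in cells that express it, and their controls were Kdm6b f/f females. Of the Pgr-Cre pairs, 3 came from tissue between implantation sites (IIS), taken at GD5.5, GD8.5 or GD14.5 (GD, gestation day), and 2 from implantation sites (IS), taken at GD14.5 or GD18.5. The held-out pair set Pdgfra-Cre Kdm6b f/f, with the Cre driven by a fibroblast receptor gene, against Kdm6b f/f at GD14.5 IS. All these females were mated with B6 males. The held-out B6CBAF1/J females carried no Kdm6b or Cre allele in the labels. Their groups were naturally mated females at GD5.5 (IIS), females mated with a vasectomized male at GD5.5 (uterus), the uterus of non-pregnant females given progesterone for 3 days, and GD0.5 uterus. Each group pooled 3 samples into 1 peak list before deposit, so no value has a replicate and no test was possible. Read depth behind each list is unknown, and peaks of this mark do not check that Kdm6b was deleted. As a check of the cell type, the fibroblast genes Col1a1, Col1a2, Col3a1, Dcn, Lum, Pdgfrb and Vim had 0% of their span inside peaks in all 16 lists. Of the other fibroblast markers listed, Pdgfra had 7.99 to 37.9% in every list, Thy1 0 to 45.7% and Twist2 0 to 6.51%, so 3 of the 10 carried peaks in some or all lists.

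The promoters below show what kind of start site the bins hold. For each of 5 gene families with a start inside a chosen bin, the window with the largest mean drop over the 5 Pgr-Cre pairs is printed, followed by a contrast, the most CpG-rich window among developmental transcription factors that peaks covered fully in all 12 knockout and control lists. Each runs 250 bases before to 50 bases after the start, 5′ to 3′ on the gene's strand, from RefSeq on GRCm38.p6, whose coordinates are those of mm10. Capitals mark CpG, the dinucleotide that is methylated in vertebrate DNA and clusters in CpG islands.
Vmn1r5 (chr6:56970085-56970384, plus strand): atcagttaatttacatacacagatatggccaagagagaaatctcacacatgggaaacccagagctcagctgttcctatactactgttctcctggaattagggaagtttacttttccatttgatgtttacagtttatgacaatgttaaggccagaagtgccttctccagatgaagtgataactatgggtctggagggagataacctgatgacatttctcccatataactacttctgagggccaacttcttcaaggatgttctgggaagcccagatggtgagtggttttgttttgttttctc
Olfr1444 (chr19:12861527-12861826, plus strand): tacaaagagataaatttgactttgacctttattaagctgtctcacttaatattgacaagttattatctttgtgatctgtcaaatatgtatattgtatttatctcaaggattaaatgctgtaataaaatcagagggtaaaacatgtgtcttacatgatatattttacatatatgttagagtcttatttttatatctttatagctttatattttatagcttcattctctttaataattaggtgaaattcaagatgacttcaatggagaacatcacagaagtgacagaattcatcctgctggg
Cyp3a57 (chr5:145345019-145345318, plus strand): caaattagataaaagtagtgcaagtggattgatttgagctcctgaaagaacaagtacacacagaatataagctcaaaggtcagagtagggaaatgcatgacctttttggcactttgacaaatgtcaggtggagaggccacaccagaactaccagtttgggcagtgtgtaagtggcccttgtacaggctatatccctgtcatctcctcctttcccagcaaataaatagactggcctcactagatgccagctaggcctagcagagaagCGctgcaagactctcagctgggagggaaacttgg
Csta3 (chr16:36210153-36210452, plus strand): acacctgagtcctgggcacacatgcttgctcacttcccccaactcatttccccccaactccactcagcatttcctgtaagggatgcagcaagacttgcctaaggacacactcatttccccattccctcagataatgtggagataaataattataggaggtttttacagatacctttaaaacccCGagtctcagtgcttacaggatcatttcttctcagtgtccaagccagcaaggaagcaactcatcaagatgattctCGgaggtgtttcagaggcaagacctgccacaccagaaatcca
H2-M1 (chr17:36672148-36672447, minus strand): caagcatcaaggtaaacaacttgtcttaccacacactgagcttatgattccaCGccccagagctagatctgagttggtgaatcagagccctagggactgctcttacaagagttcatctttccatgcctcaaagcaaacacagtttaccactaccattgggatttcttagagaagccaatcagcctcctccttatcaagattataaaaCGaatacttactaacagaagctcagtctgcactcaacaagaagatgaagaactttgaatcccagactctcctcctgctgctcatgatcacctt
Isl1 (chr13:116309639-116309938, minus strand): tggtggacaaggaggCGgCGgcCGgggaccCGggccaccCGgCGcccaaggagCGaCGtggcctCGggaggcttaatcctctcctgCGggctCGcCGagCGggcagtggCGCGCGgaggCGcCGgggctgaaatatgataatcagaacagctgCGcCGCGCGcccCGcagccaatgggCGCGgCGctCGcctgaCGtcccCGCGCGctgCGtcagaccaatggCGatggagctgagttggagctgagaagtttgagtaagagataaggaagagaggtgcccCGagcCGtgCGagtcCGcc
The window of Vmn1r5, a vomeronasal pheromone receptor gene, holds 0 CpG and was 0% inside peaks in all 5 Pgr-Cre cKO lists, against 100% in all 5 control lists. That of Olfr1444, an olfactory receptor gene, also holds 0 CpG, and its mean drop was 91.3 points. The windows of Cyp3a57, a cytochrome P450 gene, and of Csta3, which encodes a cysteine protease inhibitor, hold 1 and 2 CpG. That of H2-M1, a class Ib gene of the major histocompatibility complex, holds 2 CpG and has a GC content of 43.7%. Not all of these windows fell in all 5 Pgr-Cre pairs. At GD14.5 IS the window of Csta3 was 100% inside peaks in cKO and control, and that of H2-M1 was 0% in both. At GD18.5 IS the window of Cyp3a57 was 100% in both. Isl1, which encodes a LIM homeodomain transcription factor, has 37 CpG in the same length and a GC content of 69%, and its window lies in no chosen bin. In the held-out Pdgfra-Cre pair the windows of Vmn1r5, Olfr1444, H2-M1 and Cyp3a57 were 0% inside peaks in cKO and 0% in control, while that of Csta3 had 0% in cKO and 100% in control.

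In the 5 pairs that chose them, the bins had levels near or under the autosomal mean in knockout lists and well over it in control lists. Median coverage of the 1314 bins was 14.6% in Pgr-Cre cKO and 51.1% in control at GD5.5 IIS, the lowest of the 5 control medians. It was 24.7% in cKO and 68.9% in control at GD8.5 IIS, and 24.1% in cKO and 73.8% in control at GD14.5 IIS. At implantation sites it was 23.5% in cKO and 66.5% in control at GD14.5, and 26.2% in cKO and 70.6% in control at GD18.5. Mean coverage over all autosomal bins was 25.1 to 27.9% in the 5 cKO lists and 23.7 to 26.2% in their control lists. Bins at least 20 points lower made up 4.44% of all autosomal bins at GD5.5 IIS, 5.69% at GD8.5 IIS, 9.6% at GD14.5 IIS, 4.86% at GD14.5 IS and 6.28% at GD18.5 IS, and by the rule 100% of the chosen bins in each.

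Fewer marked cells and less mark per cell cannot be told apart in these values. The loss was partial in most of the bins. The mean drop over the 5 pairs ran from 22.8 to 66.4 points with a median of 39.9. In no bin was the drop 50 points or more in all 5 pairs. Peaks were absent from all 5 cKO lists in 2 bins, and coverage was 80% or more in all 5 control lists in 55. The 5 bins just inside the threshold had a smallest drop of 20 points, and the 5 just outside it had one of 19.97 to 19.99 points. The mean drop over the 5 pairs was 32.04 to 40.1 points in those inside and 25.7 to 38.6 points in those outside.

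**Figure D1:**
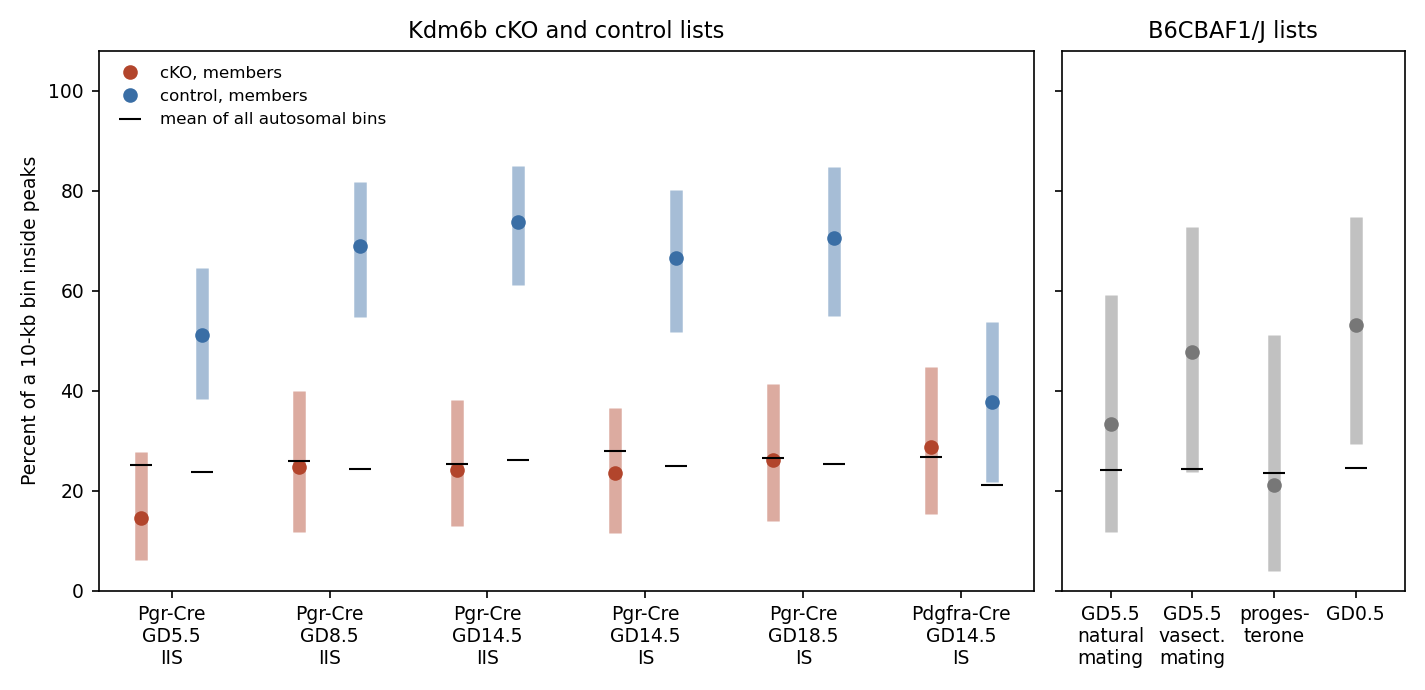
Percent of a 10-kb bin inside H3K27me3 peaks for the 1314 chosen bins, by list, with the median as a point, the quartiles as a bar and the mean of all autosomal bins as a dash. Each cKO list stands left of its control, and the groups are 1 list each. Medians lie near or under the dash in the 5 Pgr-Cre cKO lists and far above it in their controls, by the rule, while the Pdgfra-Cre lists, which the rule did not use, have medians of 28.8% in cKO and 37.7% in control.

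The bin with the largest mean drop, 66.4 points, lies at 24080001 to 24090000 of chromosome 9, 7.91 kb from Npsr1, the neuropeptide S receptor gene. Its coverage was 18.2, 16.7, 9.29, 3.8 and 4.77% in the Pgr-Cre cKO lists of GD5.5 IIS, GD8.5 IIS, GD14.5 IIS, GD14.5 IS and GD18.5 IS, against 65.1, 79.0, 75.03, 93.8 and 71.8% in the control lists in the same order. The held-out Pdgfra-Cre pair had 44.4% in cKO and 61.2% in control in that bin. A bin 16.5 kb from the predicted gene Gm1553 on chromosome 10 (82460001 to 82470000) had 0, 7.61, 28.5, 4 and 0% in the cKO lists, against 43.7, 86.3, 79.5, 64.7 and 87.7% in the control lists. There the Pdgfra-Cre pair did not fall, with 26.3% in cKO and 20.9% in control. In the bin that holds the start of Cyp3a57 on chromosome 5 (145340001 to 145350000) coverage was 16.4, 16.1, 28.7, 3.48 and 33.96% in the cKO lists, against 46.9, 81.4, 94.4, 86.1 and 94.5% in the control lists, and 34.3% in Pdgfra-Cre cKO against 60.6% in its control. The bin that holds most of H2-M11, another class Ib gene (chromosome 17, 36540001 to 36550000), had 20, 14.4, 0, 21.3 and 5.54% in the cKO lists, against 49.6, 70.0, 69.4, 87.3 and 87.8% in the control lists. The bin of Olfr873 on chromosome 9 (20300001 to 20310000) had 7.95 to 28.9% in the cKO lists, against 33.8 to 87.9% in the control lists. In that bin the Pdgfra-Cre pair had 10.3% in cKO and 35.4% in control.

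The chosen bins were scattered, with short runs. Of the 1314, 358 (27.2%) touched another chosen bin, where 1.01% of all autosomal bins do, and 56.4% had another within 5 bins, where 3.83% of all bins do. Joining neighbours across gaps of at most 1 bin gave 1017 runs, of which 798 were single bins, 162 held 2 bins, 44 held 3, 8 held 4, 2 held 5 and 3 held 6. Bins gained in all 5 pairs touched each other more often, at 51.7%. Lost and gained bins lay apart: 0.304% of the lost bins had a gained bin within 5 bins, against 9.54% of all autosomal bins. Neighbouring bins share peaks, so these shares are descriptions of the lists.

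Several of the longest runs lay away from protein-coding genes. Others lay in the olfactory receptor, MHC and immunoglobulin kappa clusters, or at single genes. On chromosome 5, 6 bins of an 80-kb stretch (116740001 to 116820000) hold no protein-coding gene, and its ends lie 147 kb from Srrm4, which encodes a neural splicing factor, and 272 kb from Suds3, which encodes a subunit of a deacetylase complex. This stretch was 20.6, 16.8, 37.2, 32.6 and 28.5% inside peaks in the cKO lists, against 42.4, 56.6, 77.8, 74.95 and 72.4% in the control lists. A 70-kb run on chromosome 10 (82460001 to 82530000) spans Gm1553. A 100-kb run on chromosome 11 (73700001 to 73800000) spans the zinc finger gene Zfp735 and the olfactory receptor genes Olfr389, Olfr390 and Olfr391, and had 25.9% in Pdgfra-Cre cKO and 31.3% in its control. A 50-kb run on chromosome 17 (36650001 to 36700000) holds H2-M1 and was 14.9, 14.0, 22.4, 14.9 and 13.8% covered in the cKO lists, against 39.4, 63.8, 72.1, 61.2 and 76.8% in the control lists. The Pdgfra-Cre pair had 18.2% in cKO and 43.3% in control over that run. A 40-kb run on chromosome 6 (67760001 to 67800000) lies among variable segments of the immunoglobulin kappa locus, with 24.2% in Pdgfra-Cre cKO and 53.0% in control. On chromosome 15, a run of 4 bins (64810001 to 64850000) lies in Adcy8, an adenylyl cyclase gene, and a run of 5 bins (65290001 to 65350000) lies 368 kb from Adcy8 and 437 kb from Efr3a with no gene in it. The other runs of 4 bins named by the same rule partly overlap Npsr1 on chromosome 9, or lie between Gm4868 and Tmem132c on chromosome 5, and between St18 and Pcmtd1 on chromosome 1.

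Density differed between chromosomes. Chromosome 19 had 12.6 chosen bins per 1000 and chromosome 7 had 7.71, against 5.34 over all autosomes, while chromosome 3 had the lowest density at 3.32. Of 502 windows of 5 Mb, 200 held none, and the median was 1. The richest window, 35 to 40 Mb of chromosome 19, held 33. Of these, 26 lie in 1 stretch of 710 kb (35240001 to 35950000), singled out after its values were seen. No protein-coding gene overlaps it, and its ends lie 264 kb from Kif20b, a kinesin gene, and 8.41 kb from Htr7, a serotonin receptor gene. Over the whole stretch coverage was 10.5, 15.9, 24.03, 30.7 and 23.7% in the Pgr-Cre cKO lists, against 34.9, 46.4, 57.5, 57.8 and 64.9% in the control lists. The held-out Pdgfra-Cre pair had 22.1% in cKO and 32.2% in control over it. Outside the stretch, chromosome 19 had 8.41 chosen bins per 1000. Another 4 of the window's bins lie in Cyp2c55 and Cyp2c65, cytochrome P450 genes of drug and fatty acid oxidation. In the window 13 of the 33 were also at least 20 points lower in the Pdgfra-Cre pair (39.4%, against 24.0% of all chosen bins), as were 30 of all its 500 bins (6.0%, against 1.6% of all autosomal bins). The next was 125 to 130 Mb of chromosome 5, with 24 bins, of which 5 lie in Tmem132b, which encodes a membrane protein. Of the 24, 3 (12.5%) were that much lower in the Pdgfra-Cre pair, as were 11 of the window's 500 bins (2.2%). A window of chromosome 15, 65 to 70 Mb, held 19, and one of chromosome 11, 70 to 75 Mb, held 18. The region within 10 Mb of Kdm6b, where the floxed allele sits, had 10.5 chosen bins per 1000 (21 of 2004 bins). It contains the window of 70 to 75 Mb with its 18 chosen bins, several of them at olfactory receptor genes, so most of the 21 lie there. The region within 10 Mb of Pgr, where the Cre sits, had 4.74 per 1000 (9 of 1897), and that within 10 Mb of Pdgfra had 3.49 (7 of 2005). Whether strain differences linked to the alleles play a part was not tested.

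**Figure D2:**
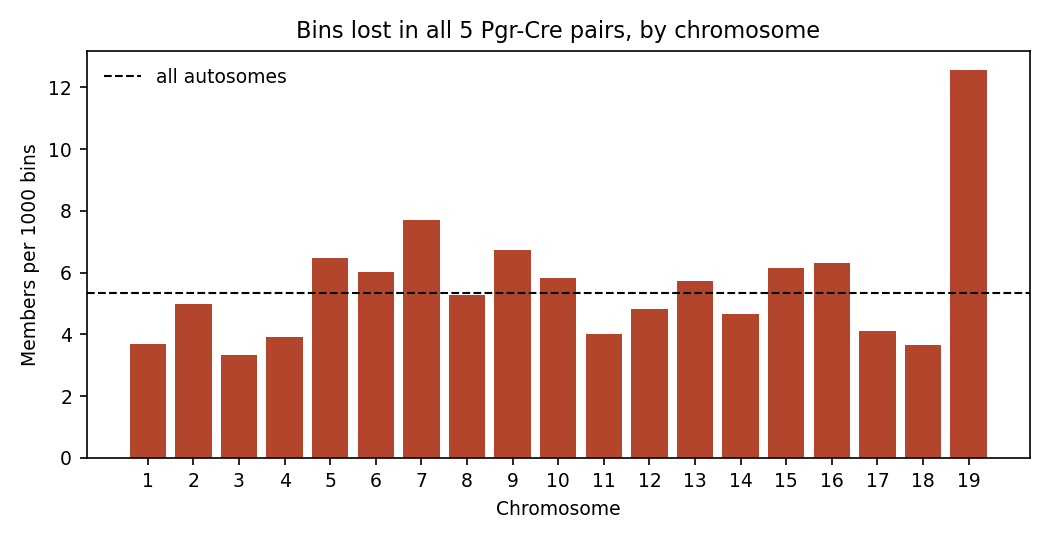
Chosen bins per 1000 bins on each autosome (bars), with the value over all autosomes as a dashed line at 5.34. Chromosome 19 stands highest at 12.6 and chromosome 3 lowest at 3.32.

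The chosen bins were poorer in genes than the autosomes as a whole, though richer than the gained bins. No protein-coding gene overlapped 64.9% of them (95% exact binomial interval 62.3 to 67.5%, over bins as counted), against 54.4% of all autosomal bins and 80.1% of the bins gained in all 5 pairs. Long noncoding RNA genes overlapped 9.97% of them, against 13.1% of all bins and 22.7% of gained bins. Pseudogenes overlapped 7.0%, against 4.38% of all bins and 3.4% of gained bins. Variable segments of antigen receptor loci overlapped 6 of the chosen bins (0.457%), against 0.154% of all bins.

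In all, 313 of 20661 autosomal protein-coding genes (1.51%) overlapped at least 1 chosen bin, and 97 overlapped 2 or more. Long genes, several of them neuronal, had the highest counts. Ptprt, a receptor tyrosine phosphatase gene of 1139 kb on chromosome 2, held 11 of them among its 115 bins. Their mean coverage was 19.5, 23.5, 23.2, 24.4 and 21.2% in the cKO lists, against 55.0, 70.7, 77.4, 65.3 and 70.2% in the control lists. In the Pdgfra-Cre pair the same bins had 34.5% in cKO and 29.7% in control, and 0 of the 11 was 20 points lower. Dlg2, which encodes a postsynaptic scaffold, and Marchf1, which encodes a ubiquitin ligase of antigen-presenting cells, held 8 each. Nrxn3, a presynaptic adhesion gene, held 7. Rbfox1, a neuronal splicing factor gene, Pcdh15, which encodes a cadherin of hair cells, and the kinase gene Stk32b held 6 each. Spag16, a sperm axoneme gene, and Tmem132b held 5 each, and Vwc2l, which neighbours Spag16, held 4. In each of Spag16 and Vwc2l, 3 of these were at least 20 points lower in the Pdgfra-Cre pair. So were 3 in each of Marchf1 and Stk32b, 2 in Nrxn3, 1 in each of Dlg2, Pcdh15 and Tmem132b, and 0 in Rbfox1. The share over all chosen bins was 24.0%. In that pair the bins of Rbfox1 had a mean of 33.6% in cKO and 24.2% in control, and those of Pcdh15 35.5% and 27.9%. Among 215 genes of at least 500 kb, 48 held a chosen bin, and these long genes overlapped 9.06% of the chosen bins and 7.39% of all bins, and a longer gene spans more bins.

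Genes with 100% of their span in 2 chosen bins were Gm1553, H2-M1, H2-M11, Vmn1r5, the olfactory receptor genes Olfr992 and Olfr1013, and 2310057J18Rik. Klk1b16, a glandular kallikrein gene, had 91.7%, Cyp2c55 had 83.9% and Fbxw23, an F-box gene, had 74.7%. Lying in chosen bins did not mean a loss over the gene itself in each pair. Over its own span Olfr992 had more coverage in cKO than in control at GD5.5 IIS, and less in the other Pgr-Cre pairs. Olfr1013 had 0% of its span inside peaks in cKO and control at GD5.5 IIS and GD18.5 IS. The other genes named here had less coverage of their span in cKO in all 5 Pgr-Cre pairs. Over the 2 bins of H2-M1, coverage was 14.3, 12.4, 17.7, 11.5 and 3.66% in the cKO lists, against 38.5, 72.6, 66, 64.4 and 82.2% in the control lists, and 4.99% in Pdgfra-Cre cKO against 33.9% in its control. Over the 2 bins of Olfr1013, the Pdgfra-Cre pair had 20.5% in cKO and 18.96% in control. Over the 3 bins of Cyp2c55 it had 44.0% in cKO and 71.1% in control, with 2 of the 3 at least 20 points lower.

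Olfactory and vomeronasal receptors and some other gene families were met more often than genes at large. Taste (42 bins touched), Mas-related (36), trace amine (16) and formyl peptide receptors (8) had no chosen bin. Nor did type I interferons (23), Skint genes (157), the Cd300, Pira, Lilr and Siglec genes (46), or Psg and Ceacam genes (66). UDP-glucuronosyltransferases (62) and sulfotransferases (84) had none either. Olfactory receptors had 63 of 1104 genes overlapping a chosen bin, 5.71% against 1.51% of all genes, and 60 of the 1254 bins they touch were chosen (4.78%, against 0.534% of all bins). Type 2 vomeronasal receptors had 9 of 122 genes and 15 of 439 bins (3.42%), and type 1 had 8 of 230 genes and 9 of 263 bins (3.42%). Cystatins and stefins, which inhibit cysteine proteases, had 5 of 25 genes, all in a cluster on chromosome 16, and 5 of 39 bins (12.8%). Of those 5 bins 4 were at least 20 points lower in the Pdgfra-Cre pair. So were 14 of the 60 olfactory receptor bins, where the share over all chosen bins was 24.0%. The same held for 6 of the 15 type 2 and 4 of the 9 type 1 vomeronasal receptor bins. MHC genes had 2 of 38 genes and 4 of 61 bins (6.56%), 2 of them that much lower in the Pdgfra-Cre pair. Cytochrome P450 genes had 5 of 99 genes and 10 of 362 bins (2.76%), 6 of them at least 20 points lower in the Pdgfra-Cre pair. Natural killer and C-type lectin genes had 4 of 62 genes and 4 of 180 bins (2.22%), 0 of them that much lower in the Pdgfra-Cre pair. Vmn2r80 on chromosome 10 held 3 chosen bins, with 32.1, 49.03, 40.4, 35.9 and 40.5% in the cKO lists, against 83.8, 85.1, 87.0, 84.5 and 83.0% in the control lists. All 3 were lower by 20 points in the Pdgfra-Cre pair, at 30.1% in cKO and 67.7% in control. Members of these families are near copies of each other, and the sources used here do not say how reads matching several copies were placed.

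Some further families had small counts, most of them at shares over the autosomal 0.534% of bins. Ly6 genes, which encode surface antigens of blood cells among others, had 2 of 21 genes and 2 of 26 bins (7.69%), both at least 20 points lower in the Pdgfra-Cre pair. Defensins, which encode antimicrobial peptides, had 2 of 71 genes and 2 of 92 bins (2.17%), and Ms4a genes 1 of 21 genes and 1 of 55 bins (1.82%). Major urinary proteins and lipocalins had 1 of 37 genes and 1 of 69 bins (1.45%), and serpins 1 of 62 genes and 2 of 172 bins (1.16%). In the Pdgfra-Cre pair 1 of the serpin bins was that much lower. There 0 of the bins of defensins, Ms4a genes, and major urinary proteins and lipocalins were. Glutamate and GABA receptor genes had 4 of 42 genes but 9 of 1196 bins (0.753%), 3 of them that much lower in the Pdgfra-Cre pair. Zinc finger genes of the Zfp series were under the autosomal share, with 3 of 391 genes and 3 of 1699 bins (0.177%). Of those bins 0 were that much lower in the Pdgfra-Cre pair. None of the Hox genes (39), collagens (42), contraction and parturition genes (36), decidual and progesterone-responsive genes (25), chemokines and inflammatory genes (22), Wnt, BMP, FGF and hedgehog genes (35), developmental transcription factors (58) or Polycomb and demethylase genes (21) overlapped a chosen bin. Nor did any gene of the marker lists for fibroblasts (10), smooth muscle (6), epithelium (6), endothelium (6), immune cells (7) and trophoblast (6). Of 22 imprinted genes 1 did, Snrpn, which encodes a splicing protein, in 1 of its 48 bins. The lists named here with no hit touch 11 (trophoblast) to 535 bins (collagens) each. At the shares of all genes (1.51%) and all bins (0.534%), few or no hits per list would be met. These zeros thus do not show that such genes were spared.

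The start sites inside the chosen bins were poor in CpG, a property that the choice did not use. RefSeq gave 101 promoter windows of protein-coding genes whose start lies in a chosen bin, from 99 genes. Their median was 1 CpG in 300 bases with a GC content of 41%, against 14 CpG and 57% over 20084 autosomal windows. At most 3 CpG were found in 93 of the 101 (92.1%), against 23.1% of all windows, 25.99% of windows in bins with a mean of 50% or more in the 5 control lists, and 27.4% of the 84 windows in bins gained in all 5 pairs. Without olfactory and vomeronasal receptor genes, a set left out after the values were seen, it was 41 of 49 windows (83.7%), against 18.3% of all windows and 22.4% of those with high control coverage. The difference was thus present beyond the receptor families.

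**Figure D3:**
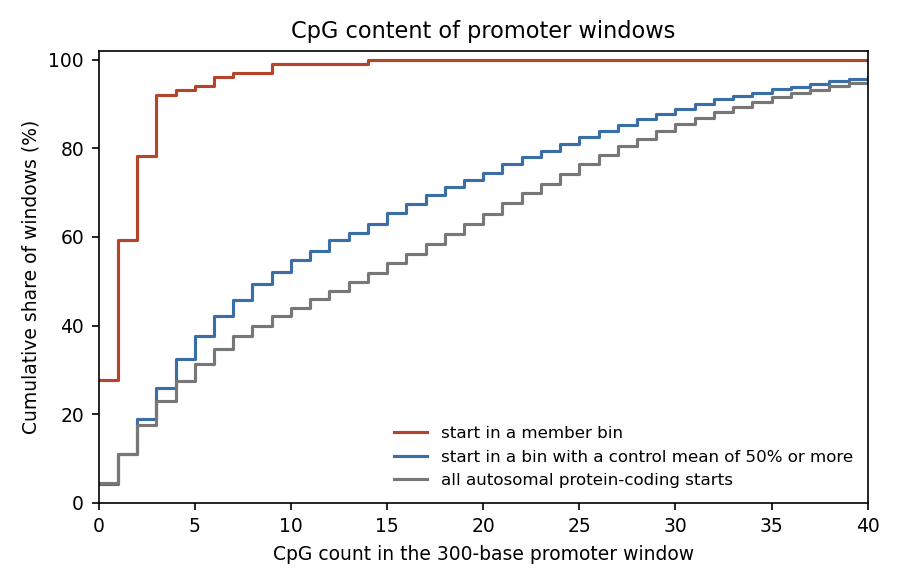
Cumulative share of 300-base promoter windows (vertical axis, %) with up to a given number of CpG (horizontal axis), for starts in chosen bins, starts in bins with a mean coverage of 50% or more in the 5 control lists, and all autosomal protein-coding starts. The first line reaches 92.1% at 3 CpG, where the second is at 25.99% and the third at 23.1%.

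The Pdgfra-Cre pair gives the first look at these bins in lists that did not choose them. Its median coverage over the 1314 bins was 28.8% in cKO and 37.7% in control, and the median difference was -8.04 points, with quartiles of -19.3 and 4. Over all autosomal bins the median difference was 0 and the mean 5.61, since the cKO list of this pair covers more of the genome (732 Mb, against 609 Mb in control). Coverage was lower in cKO in 866 of the bins (65.9%), against 14.8% of all autosomal bins. It was at least 20 points lower in 315 (24.0%, 95% exact binomial interval 21.7 to 26.4%), against 1.6% of all autosomal bins. It was at least 20 points higher in 93 (7.08%), against 13.4% of all bins. The control level here was well under the 66.5% of the Pgr-Cre control at the same day and site, which the rule required to be high.

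A bin can lose 20 points where the control has that much, and 291 of the bins had under 20% in the Pdgfra-Cre control. Among the 1023 with at least 20%, 30.8% were at least 20 points lower, against 5.12% of all such autosomal bins. At control levels of 20 to 40% the share was 17.2% of the chosen bins and 4.71% of all bins. At 40 to 60% it was 34.8% and 5.93%, at 60 to 80% 47.9% and 6.95%, and at 80% or more 52.8% of 53 chosen bins and 3.86% of all bins. In each of the 4 ranges the chosen bins lost more often than bins of like control level. The share also went up with the number of Pgr-Cre pairs in which a bin was lost, which was 0.484, 3.63, 6.93, 11.9, 17.7 and 24.0% for bins lost in 0, 1, 2, 3, 4 and 5 pairs.

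The largest drop in the Pdgfra-Cre pair, 75.3 points, was in a bin of chromosome 19 (12320001 to 12330000) that holds Olfr1437, with 20.1% in cKO and 95.4% in control. Bins of the olfactory receptor genes Olfr434 and Olfr437 on chromosome 6 dropped by 55.2 and 53.5 points. A bin of the immunoglobulin kappa locus (67780001 to 67790000) dropped by 59 points. The 5 largest differences the other way were 48.6 to 56.8 points, 3 of them on chromosome 5, and none of these 5 bins holds a protein-coding gene. The highest of them (77930001 to 77940000) had 92.6% in Pdgfra-Cre cKO and 35.8% in control.

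**Figure D4:**
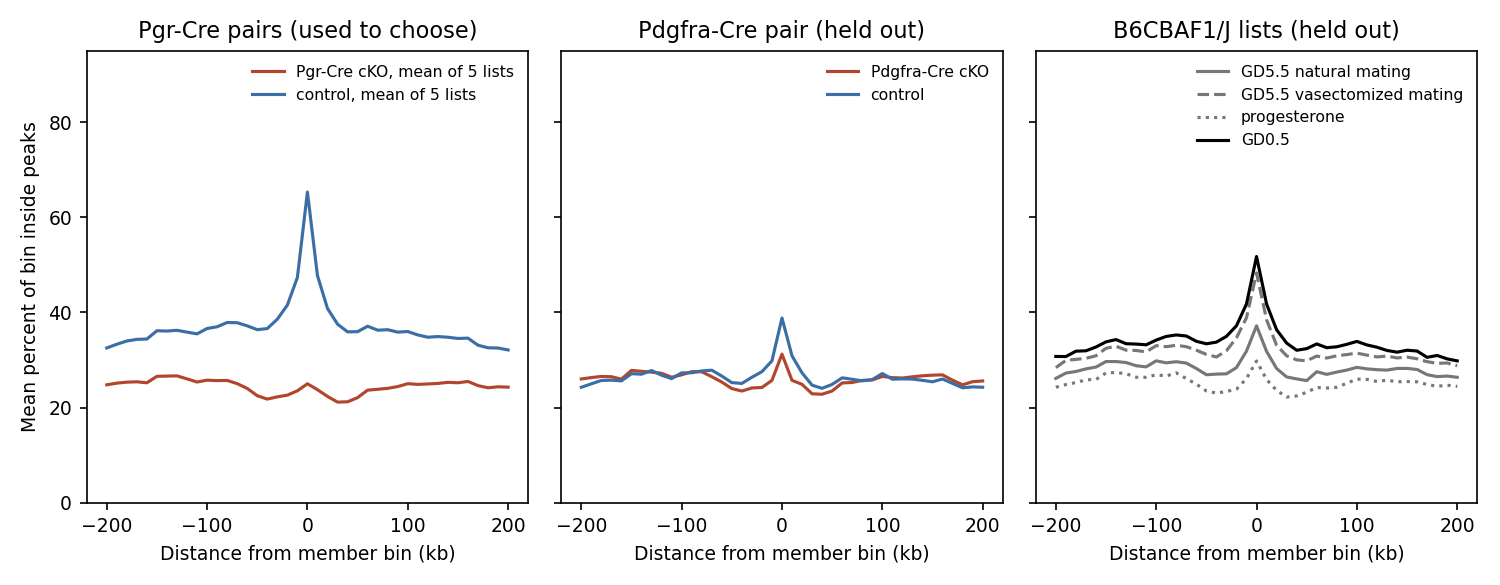
Mean percent of a bin inside peaks (vertical axis) by distance from the chosen bins in kb (horizontal axis), for the Pgr-Cre pairs used in the choice, the held-out Pdgfra-Cre pair and the B6CBAF1/J lists. At distance 0 the means were 25.02% in Pgr-Cre cKO and 65.3% in control, 31.2% in Pdgfra-Cre cKO and 38.8% in its control, and 37.2% (natural mating), 48.3% (vasectomized mating), 29.8% (progesterone) and 51.8% (GD0.5).

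Around the bins, control lists had a narrow summit on a broad shoulder. At 10 kb to the left the mean over the Pgr-Cre lists was 23.5% in cKO and 47.4% in control, at 100 kb 25.8% in cKO and 36.6% in control, and at 200 kb 24.8% in cKO and 32.5% in control. The gap between the lines thus extended past the chosen bins in the pairs that chose them. In the Pdgfra-Cre pair it was narrower: 25.7% in cKO and 29.8% in control at 10 kb, and 26.9% in cKO and 27.3% in control at 100 kb.

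The B6CBAF1/J lists address whether the same bins differ between early pregnancy, pseudopregnancy or progesterone and GD0.5 in females without the Kdm6b alleles. The 3 comparisons share the GD0.5 list, so they are not independent, and the GD5.5 natural mating list comes from IIS while the others come from whole uterus. Median coverage of the 1314 bins was 33.4% at GD5.5 after natural mating, 47.7% at GD5.5 after vasectomized mating and 21.2% after progesterone, against 53.2% at GD0.5. The median differences from GD0.5 were -13.5, -2.44 and -20.8 points, against 0 over all autosomal bins in each. After progesterone 681 bins (51.8%) were at least 20 points lower than at GD0.5, against 8.03% of all bins. After natural mating 504 (38.4%) were, against 6.11%, and after vasectomized mating 309 (23.5%), against 6.31%. Higher by 20 points or more were 41 bins (3.12%) after progesterone, against 5.73% of all bins, 62 (4.72%) after natural mating, against 5.29%, and 187 (14.2%) after vasectomized mating, against 5.77%. These differences depended on the peaks counted. With peaks at a -log10 p of at least 1, 57 of the 1314 bins (4.34%) were at least 20 points lower and 49 (3.73%) at least 20 points higher after progesterone, and 2.695% of all bins were lower. For natural mating 4.19% were lower there, against 2.74% of all bins, and for vasectomized mating 3.88%, against 2.953%. Over the bins that pass the rule at that threshold all 3 median differences from GD0.5 were 0, and over those that pass at equal covered length the median after vasectomized mating was 0 too.

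The chosen bins had a mean of 51.8% at GD0.5, against 24.6% over all autosomal bins, so the shares were also taken at like GD0.5 levels. Among bins with at least 20% at GD0.5, 62.1% of 1097 chosen bins were at least 20 points lower after progesterone, against 23.7% of all such bins. For natural mating it was 45.9% against 18.0%, and for vasectomized mating 28.2% against 18.6%. For progesterone the share of chosen bins was higher in each range of the GD0.5 level, from 59.3% against 35.2% at 20 to 40% to 59.8% against 12.3% at 80% or more. For natural mating it was likewise, from 36.8% against 27.1% to 50.4% against 8.67%. For vasectomized mating it was lower at 20 to 40% (12.8% against 25.6%), near at 40 to 60% (28.9% against 26.4%) and higher above (35.2% against 10.4% at 80% or more).

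Named genes showed both patterns. The 3 bins of Cyp2c55 had 29.3% after natural mating, 12.5% after vasectomized mating and 6.28% after progesterone, against 52.0% at GD0.5. The 8 bins of Dlg2 had 33.4, 43.7 and 21.7% in the same order, against 63.6% at GD0.5. The 11 bins of Ptprt stayed high in these lists, with 67.7, 81.0 and 56.6%, against 70.4% at GD0.5. The 2 bins of H2-M1 were at 0% in all 4 lists. The 2 bins of Gm1553 had 72.1, 71.8 and 64.1%, against 70.1% at GD0.5.

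**Figure D5:**
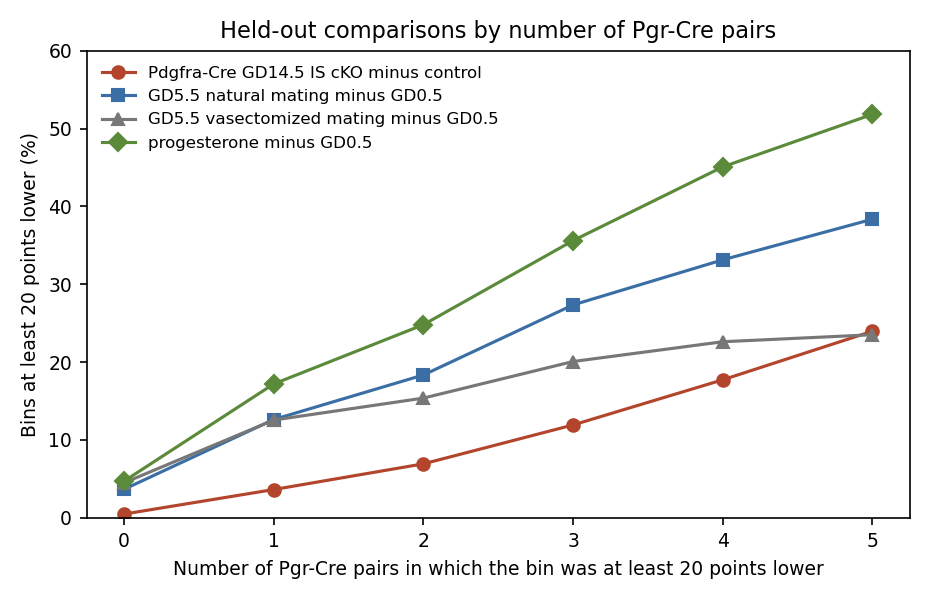
Share of bins at least 20 points lower in each held-out comparison (vertical axis, %) by the number of Pgr-Cre pairs in which the bin was at least 20 points lower (horizontal axis, 0 to 5). At 5 pairs the shares are 24.0% for Pdgfra-Cre cKO minus control, and 38.4, 23.5 and 51.8% for natural mating, vasectomized mating and progesterone minus GD0.5, which share 1 GD0.5 list.

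By the authors' own values, peaks were weak in these lists as a whole. Peaks touching the chosen bins had a median fold of 1.10 to 1.13 in the 6 cKO lists, under the median of all peaks in each list (1.12 to 1.15). In the 5 Pgr-Cre control lists theirs was 1.12 to 1.16, over the median of all peaks in each list (1.11 to 1.14). In the Pdgfra-Cre control it was about equal, at 1.144 against 1.143, and the median -log10 p was lower, at 0.647 against 0.659. Of the 1314 bins 9 (0.685%) touched, in 1 or more of the 12 lists, a peak whose -log10 q reached 2, against 2.45% of all autosomal bins and 0.199% of the bins gained in all 5 pairs. When each list was reduced to its most significant peaks at equal covered length, mean coverage of the same 1314 bins was 4.99, 7.08, 8.45, 5.61 and 6.49% in the Pgr-Cre cKO lists, against 26.7, 41.2, 42.4, 30.2 and 37.6% in the control lists. In the Pdgfra-Cre pair it was 6.62% in cKO and 22.6% in control, and 459 bins (34.9%) were at least 20 points lower, against 4.95% of all bins. Which bins pass the rule changed with that selection: 959 did, of which 202 were among the 1314, 21.1% of the new set and 15.4% of the old. Of the 432 bins that passed with peaks at a -log10 p of at least 1, 23 were among the 1314, and of the 22 that passed at a -log10 q of at least 2, 0 were. Which single bins pass thus depended on the peaks counted. The share at least 20 points lower in the Pdgfra-Cre pair, taken over the bins that passed under each selection, was 58.1, 53.5 and 77.3%, against 4.95, 3.94 and 1.575% of all autosomal bins. These are mostly other bins. The last share rests on 22 bins, of which 95.5% touched another of them, so they are not independent. Over the 1314 themselves the share was 34.9% at equal covered length and 8.98% (118 bins) at a -log10 p of at least 1. At a -log10 q of at least 2 it was 0%, with a mean coverage of 0.0299% left in the Pdgfra-Cre control.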

How the data were processed

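H3K27me3 CUT&RUN was measured in purified uterine fibroblasts. Per the labels, STAR 2.7.5c (build mm10) and, for broad peaks, macs2 2.2.7.1 were used. The 16 deposited lists, made by the authors from 3 samples each, give each peak's position, its fold over background (a ratio) and its -log10 p and -log10 q. Of 80 samples, 48 enter these lists and 32 are not analysed here. The 32 are input samples and later sets of Pgr-Cre cKO and control, from GD0.5 uterus and GD5.5 IIS. Peak names of the Pgr-Cre GD14.5 IS pair point to a calling round of its own.

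Peaks of a list were merged and the percent of each 10-kb autosomal bin inside them was computed. The 2 sets of lists were not compared with each other. Genes and promoter windows came from RefSeq (GRCm38.p6). Coverage and rule were tested on simulated data. Named bins were the 10 with the largest mean drop, the 10 and 5 with the largest Pdgfra-Cre drop and rise, the 5 on either side of the threshold and the 10 longest runs; named genes were the 10 with most chosen bins, the 10 with the largest share of their span in at least 2 of them, and up to 6 per list, of which the text gives a part. Alternatives were other drops, bins, peak selections and pairs left out. Binomial intervals cover counting of bins only, and neighbouring bins are not independent. The members, gene lists and rules were chosen with earlier results of these data known. Scripts ran in Python 3.11.15 (numpy 2.4.6, matplotlib 3.10.9, pandas 2.3.3, scipy 1.17.1).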

Additional observations from a re-analysis of the deposited data

Results flagged for a closer look

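The X chromosome took no part in the choice of bins. Under the same rule 308 of its 17089 bins (1.80%) were at least 20 points lower in cKO than in control in all 5 Pgr-Cre pairs, against 0.534% of autosomal bins, and these X bins are reported here as a value of data that the comparisons above did not use.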

How the results depend on the processing

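Leaving out 1 Pgr-Cre pair from the rule gave 1502 to 2655 bins, the highest without GD5.5 IIS. Over these, the share lost in the Pdgfra-Cre pair was 20.5 to 23.7% (median difference -7.43 to -6.15), the share next to another chosen bin 27.96 to 38.4%, the share free of protein-coding genes 63.8 to 65.0%, and the medians against GD0.5 -13.9 to -12.1 (natural mating), -3.22 to -1.11 (vasectomized mating) and -21.1 to -17.8 (progesterone). Drops of at least 10 points gave 4513 bins: Pdgfra-Cre 18.3% and -4.97, neighbours 44.5%, natural mating -10.6, progesterone -16.3. Drops of at least 30 points gave 299 bins: 29.4% and -11.1, 13.7%, -15.9 and -22.7. At equal covered length 959 bins gave Pdgfra-Cre 58.1% and -26.8, neighbours 19.3%, gene-free 61.6%, natural mating -4.74, vasectomized mating 0 and progesterone -9.33. At a -log10 p of at least 1, 432 bins gave 53.5% and -23.6, 19.9% and 60.9%, and at a -log10 q of at least 2, 22 bins gave 77.3% and -71.0, 95.5% and 36.4%. All 3 medians against GD0.5 were 0 at both thresholds. Bins of 20 kb gave 589 bins, Pdgfra-Cre 17.2% and gene-free 57.2%. Bins from position 5000 gave 23.3% next to another. Subtracting each pair's mean difference gave Pdgfra-Cre 34.6% and -12.9, where all autosomal bins then had 3.08% and a median of -5.61. Any drop in the Pdgfra-Cre pair gave 65.9%, neighbours within 5 bins 56.4%, gene-free with 10 kb added to genes 55.6% and with all annotated genes 49.7%. The medians kept a negative sign in 36 of 43 alternatives and were 0 in the other 7, and the cause of these shifts was not tested. Without chromosome 19, left out after seeing the data, the Pdgfra-Cre share was 23.4%.

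The limits are 1 pooled list per group, unknown depth and peaks of low fold, so the stability of single bins between animals cannot be judged. The labels do not say whether the same females gave IS and IIS tissue at GD14.5. No paired analysis was possible because each list pools its samples and the result comes from no test.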

Other observations

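The 202 bins that met the rule both with every peak counted and at equal covered length were also followed in the Pdgfra-Cre pair, a set taken after the values were seen. With every peak counted, 70 of them (34.7%) were at least 20 points lower there, with a median difference of -13.6 points.

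With peaks at a -log10 p of at least 1, the 1314 bins had a mean coverage of 1.46% in Pdgfra-Cre cKO and 5.39% in control. In the B6CBAF1/J lists the means were then 4.07% after natural mating, 6.21% after vasectomized mating and 4.08% after progesterone, against 4.51% at GD0.5, so the lower levels against GD0.5 lay in peaks under that threshold.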
